A study of Mus musculus with 9 samples.

Results

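The genes described here encode the constitutive proteasome. They were taken as every gene of the count table whose symbol starts with Psm, a letter from a to g and a number, leaving out the immunoproteasome subunits Psmb8, Psmb9 and Psmb10 and 4 symbols that end in -ps. Of 55278 genes with a symbol, 47 met this rule. They comprise 8 alpha and 8 beta subunits of the 20S core, 6 ATPase and 14 non-ATPase genes of the 19S regulator, 6 activators and inhibitors and 4 assembly chaperones. The remaining gene, Psmc3ip, is caught by its symbol only: it encodes a cofactor of homologous recombination and no proteasome subunit. The label "constitutive" is also loose for Psme1 and Psme2, which interferon-gamma is known to induce, for Psma8, known from the testis, and for Psmb11, known from thymic cortical epithelium.

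RNA was sequenced from dendritic cells sorted from thymi of C57BL/6 mice 8 weeks of age, with no other genotype or agent named. The 3 populations were called CD301b, SIRPa and XCR1 after surface proteins, with 3 libraries each. CD301b is the lectin encoded by Mgl2, SIRPa marks type 2 conventional dendritic cells and XCR1 is the chemokine receptor of type 1 conventional dendritic cells. The sources used here do not give the gates, the number of cells or any pooling of animals, and the source name of the labels says thymocytes where the cell type says thymic dendritic cells.

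The proteasome is the protease complex that degrades proteins tagged with ubiquitin. Its barrel-shaped 20S core holds the catalytic sites on beta subunits, and the 19S cap binds, unfolds and feeds in substrates with a ring of ATPases. In antigen-presenting cells, the peptides it releases supply MHC class I, and the immunoproteasome subunits can take the places of the constitutive catalytic ones. In the thymus, a further form with Psmb11 is known in cortical epithelial cells.

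Libraries held 20246092 to 25438864 counts in all. The gene of CD301b, Mgl2, lay at 566 to 683 CPM (read counts scaled to a common library size with TMM) in CD301b libraries, 17.7 to 28.3 CPM in SIRPa libraries and 1.33 to 2.34 CPM in XCR1 libraries. Xcr1 lay at 0.32 to 1.08 CPM in CD301b, 6.58 to 15.6 CPM in SIRPa and 663 to 854 CPM in XCR1 libraries. Sirpa lay at 599.6 to 705 CPM in CD301b, 734 to 841 CPM in SIRPa and 9.03 to 14.6 CPM in XCR1 libraries, and was not called between CD301b and SIRPa (adjusted p = 0.375), so it does not set these apart. All 47 genes passed the filter on low counts and were among the 15417 tested. Differences were called with edgeR's quasi-likelihood test at a Benjamini-Hochberg adjusted p below 0.05, adjusted over all genes tested. In bulk samples, fewer cells of a type and less RNA per cell cannot be told apart.

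Upstream sequences of 4 genes are shown first. Psme2 and Psma5 were called lower in CD301b and in SIRPa than in XCR1 libraries. The catalytic subunits Psmb5 and Psmb6 were called in no comparison, which does not make them a contrast. Psmb6 had log2 fold changes over XCR1 of -0.30 for CD301b and -0.37 for SIRPa. The medians over the 47 genes were -0.30 and -0.35. The windows are RefSeq promoters (assembly GRCm38.p6), cut here to the bases before the gene's start in the GENCODE annotation, and written 5′ to 3′ on the gene's strand. They are chr14:55591114-55591351 on the minus strand for Psme2, chr3:108256676-108256925 on the plus strand for Psma5, chr14:54618023-54618245 on the minus strand for Psmb5 and chr11:70525107-70525356 on the plus strand for Psmb6. Capitals mark TGACNNNGC, the core of the antioxidant response element that NRF factors are known to bind, and GGGCGG, the GC box, each searched on both strands.
Psme2: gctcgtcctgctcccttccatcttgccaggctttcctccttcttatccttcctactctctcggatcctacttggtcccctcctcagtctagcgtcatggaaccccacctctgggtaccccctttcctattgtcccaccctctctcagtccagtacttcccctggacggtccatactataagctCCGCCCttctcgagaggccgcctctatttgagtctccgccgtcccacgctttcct
Psma5: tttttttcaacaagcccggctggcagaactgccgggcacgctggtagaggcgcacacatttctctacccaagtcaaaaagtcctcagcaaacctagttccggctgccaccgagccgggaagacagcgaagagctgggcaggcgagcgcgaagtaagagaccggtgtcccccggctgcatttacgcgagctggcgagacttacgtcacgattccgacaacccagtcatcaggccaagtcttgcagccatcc
Psmb5: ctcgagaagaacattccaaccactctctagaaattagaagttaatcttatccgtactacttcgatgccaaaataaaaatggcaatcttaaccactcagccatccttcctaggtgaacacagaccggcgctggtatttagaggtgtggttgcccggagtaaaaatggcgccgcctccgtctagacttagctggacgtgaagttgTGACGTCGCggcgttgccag
Psmb6: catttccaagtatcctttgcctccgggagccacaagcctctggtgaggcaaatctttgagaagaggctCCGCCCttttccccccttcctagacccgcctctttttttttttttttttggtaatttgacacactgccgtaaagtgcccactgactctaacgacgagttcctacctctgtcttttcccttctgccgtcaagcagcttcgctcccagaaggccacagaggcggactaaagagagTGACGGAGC
TGACNNNGC was found in the windows of Psmb5 and Psmb6, and GGGCGG in those of Psme2 and Psmb6. The Psma5 window held neither run of letters. Over the 250 bases before the RefSeq start, TGACNNNGC occurred in 5 of the 39 genes with a window (12.8%), against 11.5% of 27025 genes of the genome. The 5 were Psmb5, Psmb6, Psmc6, Psmd12 and Psmd9. Of these, Psmd12 was called lower in CD301b than in XCR1 libraries, and the others were called in no comparison. GGGCGG occurred in 21 of 39 (53.8%), against 35.4% of all, and the CCAAT box (CCAAT) in 14 (35.9%), against 37.5%. The core of the interferon-stimulated response element was found in 3 of 39 (7.7%), against 3.5% of all, and that of the gamma-activated site, TTCNNNGAA, in 1 (2.6%), against 8.1%. These are matches of letters and say nothing about binding.

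Proteasome transcripts were less abundant in the CD301b and the SIRPa population than in the XCR1 population, while CD301b and SIRPa differed little. Between CD301b and XCR1, 11 of the 47 genes were called lower and 0 higher (23.4%), where 22.6% of all genes were called in either direction and 9.12% lower. Between SIRPa and XCR1, 18 were called lower and 0 higher (38.3%), where 24.7% of all genes were called and 10.7% lower. Between CD301b and SIRPa, 1 gene, Psmd5, was called higher and 0 lower (2.13%), where 4.28% of all genes were called, 2.2% higher and 2.08% lower. Both comparisons with XCR1 use the same XCR1 libraries, so their calls are not independent of each other. Without XCR1 replicate 2, the counts were 6 and 13 genes, all lower. The 6 genes were 12.8% of the 47, where 18.1% of all genes were called and 6.93% lower. The 13 genes were 27.7%, where 19.7% of all genes were called and 8.17% lower.

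**Figure D1:**
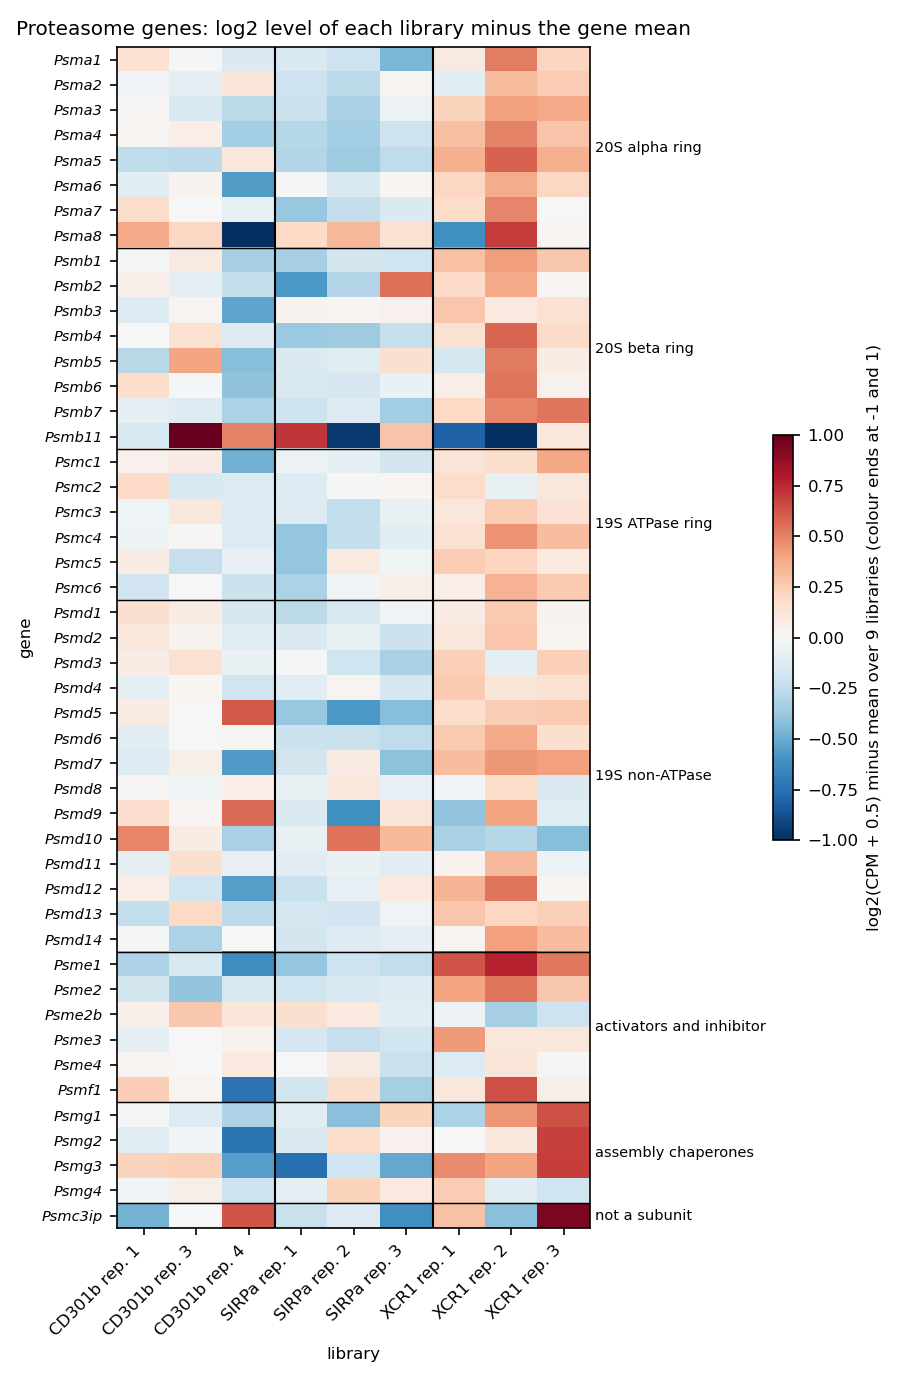
Level of each of the 47 genes (down the page, grouped by role) in each of the 9 libraries (across, CD301b, SIRPa, XCR1), as the distance in log2(CPM + 0.5) from the gene's mean over all libraries. XCR1 replicate 2 had the highest level of any library for 27 of the 47 genes, and CD301b replicate 4 the lowest for 16.

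The differences were small for most genes. The median log2 fold change over the 47 genes was -0.30 for CD301b over XCR1, against 0.05 over all genes tested, and -0.35 for SIRPa over XCR1, against 0.06 over all genes. It was 0.06 for CD301b over SIRPa, against 0.01 over all genes. The median standard error was 0.14. Between CD301b and SIRPa, 44 of the 47 log2 fold changes were below 0.5 in size. In the comparison of CD301b with XCR1, the libraries of 22 genes lay below those of XCR1 without overlap and those of 1 gene above, 48.9% together, where 34.4% of all genes had no overlap. For SIRPa against XCR1, 28 genes lay below and 1 above (61.7%, with 40.2% of all genes). For CD301b against SIRPa, 6 lay above and 0 below (12.8%, with 22.1% of all genes).

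Summed over the 36 genes of the 20S core and the 19S regulator, the level was 2835, 2840 and 2487 CPM in CD301b libraries, 2450, 2547 and 2605 CPM in SIRPa libraries and 3163, 3567 and 3195 CPM in XCR1 libraries. Every XCR1 library lay above every library of the other populations, while CD301b and SIRPa overlapped. Of single genes, 38 of 47 had their highest population mean in XCR1, 6 in CD301b and 3 in SIRPa. The lowest mean was in SIRPa for 29 genes, in CD301b for 15 and in XCR1 for 3.

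Other gene groups moved with the same contrast. The summed level of 20 cell cycle genes was 1990 to 2103 CPM in CD301b, 1499 to 1928 CPM in SIRPa and 2792 to 3605 CPM in XCR1 libraries, with no overlap of either with XCR1. Of these 20, 15 were called lower in CD301b and 20 lower in SIRPa than in XCR1. Of the macrophage list of 10 genes, 9 were called higher in CD301b and 9 higher in SIRPa than in XCR1, and it summed to 1497 to 1763 CPM in CD301b, 2503 to 2919 CPM in SIRPa and 94.7 to 117 CPM in XCR1 libraries. Its defining gene C1qa lay at 379 to 420 CPM in CD301b, 664 to 729 CPM in SIRPa and 0.86 to 9.93 CPM in XCR1 libraries. Plasmacytoid dendritic cell genes (7) summed to 484 to 622 CPM in CD301b, 336 to 377 CPM in SIRPa and 115 to 141 CPM in XCR1 libraries, with 4 called higher in CD301b and 3 higher in SIRPa than in XCR1. Thymocyte and T cell genes (15, of which 14 were tested) summed to 453 to 813 CPM in CD301b, 665 to 913 CPM in SIRPa and 192 to 806 CPM in XCR1 libraries, and 1 was called higher in each of the first 2 than in XCR1. Of this list, Cd4 alone lay at 195 to 240 CPM in CD301b, 282 to 318 CPM in SIRPa and 15.1 to 39.5 CPM in XCR1 libraries. The differences between the sums thus rest in large part on 1 gene. In the summed level, XCR1 replicate 3 stood apart, at 806 CPM against 230 and 192 CPM in replicates 1 and 2. It had, for example, 115 CPM of Rag1 and 75.7 CPM of Dntt, while Ptcra lay at 0 to 0.66 CPM in all libraries. Without XCR1 replicate 3, 10 proteasome genes were called lower in CD301b and 16 lower in SIRPa than in XCR1. That was 21.3% and 34% of them, where 7.81% and 9.58% of all genes were called lower and 19.7% and 22.4% in either direction. The 19 interferon response genes did not move one way: 8 were called higher and 7 lower in CD301b than in XCR1, and 9 higher and 5 lower in SIRPa than in XCR1. Of all genes, 13.5% were called higher and 9.12% lower in CD301b than in XCR1. For SIRPa over XCR1, 13.9% were called higher and 10.7% lower. The part of any of these gene groups in the proteasome differences was not tested.

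The alpha subunits form the outer rings of the 20S core, which gate the channel and dock the regulators. Of 8 alpha genes, 4 were called lower in CD301b (Psma3, Psma4, Psma5, Psma6) and 5 lower in SIRPa (Psma1, Psma3, Psma4, Psma5, Psma7) than in XCR1. Psma5 had 51.5, 51.1 and 66.4 CPM in CD301b libraries, 49.98, 47.9 and 51.6 CPM in SIRPa libraries and 78.9, 93.0 and 78.9 CPM in XCR1 libraries. The lowest XCR1 library was above all 6 others. Its log2 fold change was -0.57 ± 0.14 (SE; adjusted p = 0.00586) for CD301b over XCR1 and -0.75 ± 0.14 (adjusted p = 0.000506) for SIRPa over XCR1.

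Psma4, the most abundant 20S gene per kilobase of exon, had 185, 190 and 143 CPM in CD301b libraries, 149, 144 and 158 CPM in SIRPa libraries and 224, 257 and 222 CPM in XCR1 libraries. Again no library of CD301b or SIRPa reached the XCR1 range. The log2 fold change was -0.44 ± 0.12 for CD301b over XCR1 (adjusted p = 0.00873, and 0.0529 without XCR1 replicate 2). It was -0.64 ± 0.12 for SIRPa over XCR1 (adjusted p = 0.000282). Psma3 had 135, 121 and 111 CPM in CD301b, 115, 107 and 129 CPM in SIRPa and 156, 177 and 174 CPM in XCR1 libraries. It too lay wholly below XCR1 in both, with log2 fold changes of -0.47 ± 0.12 for CD301b (adjusted p = 0.00537) and -0.53 ± 0.12 for SIRPa (adjusted p = 0.00171).

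The other calls in the alpha ring depended on single libraries. Psma1 had 74.96, 66.5 and 61.0 CPM in CD301b, 60.6, 58.4 and 49.0 CPM in SIRPa and 71.9, 96.4 and 78.3 CPM in XCR1 libraries, so that CD301b overlapped XCR1. It was called for SIRPa over XCR1 (log2 fold change -0.55 ± 0.15, adjusted p = 0.00766), but not without XCR1 replicate 2 (adjusted p = 0.0647) or SIRPa replicate 3 (adjusted p = 0.0507). Psma7 was called for SIRPa over XCR1 (-0.49 ± 0.13, adjusted p = 0.00835, and 0.0794 without XCR1 replicate 2). Psma6 was called for CD301b over XCR1 (-0.45 ± 0.14, adjusted p = 0.0244), but not without XCR1 replicate 2 (adjusted p = 0.0950) or CD301b replicate 4 (adjusted p = 0.0985). Psma2, uncalled, averaged 76.5 ± 6.09 CPM in CD301b, 69.2 ± 7.82 CPM in SIRPa and 85.7 ± 13.1 CPM in XCR1 libraries (SD, n = 3 each).

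**Figure D2:**
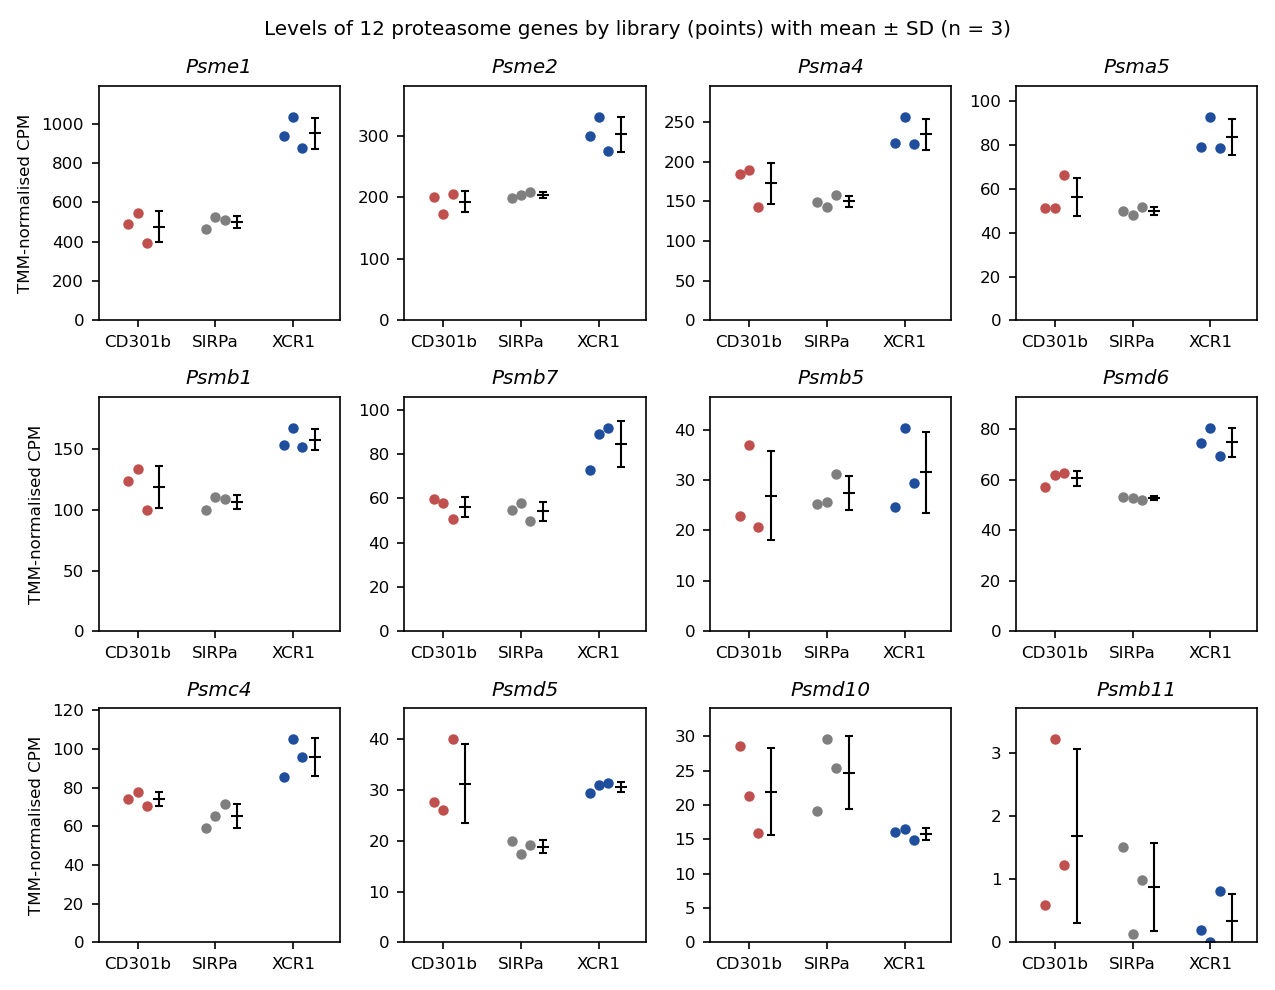
Level in CPM of selected genes in each library, with CD301b, SIRPa and XCR1 from left to right in each panel. Points are libraries and bars are the mean and SD of 3 libraries. Psme1 and Psma5 lie apart in XCR1, while the populations overlap for Psmb5. The SD bar of Psmb11 in XCR1 ends at the axis at 0.

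The beta rings carry the catalytic sites: Psmb5 encodes the chymotrypsin-like, Psmb6 the caspase-like and Psmb7 the trypsin-like subunit. Of the 8 beta genes, 2 were called lower in CD301b (Psmb1, Psmb7) and 3 lower in SIRPa (Psmb1, Psmb4, Psmb7) than in XCR1. Psmb7 had 59.5, 57.9 and 50.7 CPM in CD301b libraries, 54.8, 57.8 and 49.6 CPM in SIRPa libraries and 72.6, 88.8 and 91.9 CPM in XCR1 libraries. All XCR1 libraries exceeded all others. The log2 fold change was -0.59 ± 0.14 for CD301b over XCR1 (adjusted p = 0.00362) and -0.64 ± 0.14 for SIRPa over XCR1 (adjusted p = 0.00163). Nek6, on the opposite strand, shares 11.8% of the exonic bases of Psmb7, and whether counting used strand is not given, so reads of the pair cannot be told apart there. The same holds for Psmd9 (25.5% shared with Gm26745), Psmc3ip (21.2% with Mlx), Psmb8 (14.7% with Gm20496) and Psmd13 (10.1% with Sirt3). It also holds for Psmc3 (8.25% with Slc39a13) and Psmb9 (5.79% with Tap1, itself called lower in CD301b and in SIRPa than in XCR1). On the same strand, Psmb5 shares 12.1% with Mir686 and Psmg3 9.68% with Gm26938, which counting by strand would not separate. Smaller shares are not listed.

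The other constitutive catalytic genes were not called. Psmb5 had 22.9, 37.0 and 20.6 CPM in CD301b libraries, 25.2, 25.6 and 31.2 CPM in SIRPa libraries and 24.7, 40.4 and 29.5 CPM in XCR1 libraries. All 3 populations overlapped, with log2 fold changes of -0.23 for CD301b over XCR1 (adjusted p = 0.572) and -0.20 for SIRPa over XCR1 (adjusted p = 0.624). Psmb6 had 79.6, 69.4 and 53.1 CPM in CD301b, 63.3, 62.6 and 67.1 CPM in SIRPa and 73.7, 102 and 72.4 CPM in XCR1 libraries. Its SIRPa libraries all lay below XCR1, but the log2 fold change of -0.37 did not pass (adjusted p = 0.113), nor did -0.30 for CD301b over XCR1 (adjusted p = 0.217).

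Of the non-catalytic beta subunits, Psmb1 had 124, 133 and 99.4 CPM in CD301b libraries, 99.6, 111 and 109 CPM in SIRPa libraries and 154, 168 and 151 CPM in XCR1 libraries. Both populations lay wholly below XCR1. The log2 fold change was -0.57 ± 0.12 for SIRPa over XCR1 (adjusted p = 0.00135). For CD301b over XCR1 it was -0.41 ± 0.12 (adjusted p = 0.0179), and the call did not hold in the absence of CD301b replicate 4 (adjusted p = 0.0668) or XCR1 replicate 2 (adjusted p = 0.0733). Psmb4 had 63.1, 69.97 and 57.3 CPM in CD301b, 48.6, 49.1 and 53.4 CPM in SIRPa and 70.04, 94.2 and 71.9 CPM in XCR1 libraries. The SIRPa libraries were the lowest for this gene, with a log2 fold change of -0.64 ± 0.15 over XCR1 (adjusted p = 0.00233), and -0.31 for CD301b over XCR1 did not pass (adjusted p = 0.148).

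Psmb8, Psmb9 and Psmb10, set beside the catalytic genes they replace, did not move as one. Psmb9 had 61.3, 72.4 and 57.7 CPM in CD301b libraries, 70.3, 75.03 and 65.7 CPM in SIRPa libraries and 171, 209 and 153 CPM in XCR1 libraries, with log2 fold changes of -1.48 ± 0.14 for CD301b (adjusted p = 3.93e-08) and -1.34 ± 0.14 for SIRPa (adjusted p = 1.60e-07) over XCR1. Psmb8 averaged 344 ± 52.3 CPM in CD301b, 344 ± 19.2 CPM in SIRPa and 576 ± 57.2 CPM in XCR1 libraries (SD, n = 3 each), with -0.74 ± 0.11 in both comparisons (adjusted p = 3.64e-05 for CD301b and 3.30e-05 for SIRPa). Psmb10 averaged 54.8 ± 6.96 CPM in CD301b, 66.1 ± 2.73 CPM in SIRPa and 60.7 ± 14.5 CPM in XCR1 libraries and was not called.

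The log2 ratio of each immunoproteasome gene to its constitutive counterpart was then compared over libraries, since it does not depend on library scaling. Psmb9 over Psmb6 stood at -0.38, 0.06 and 0.12 in CD301b libraries, 0.15, 0.26 and -0.03 in SIRPa libraries and 1.21, 1.03 and 1.08 in XCR1 libraries. The lowest XCR1 library was well above the highest of the others, with a difference of means of -1.17 for CD301b minus XCR1 and -0.98 for SIRPa minus XCR1 (two-sided exact permutation p = 0.1 for each). For Psmb8 over Psmb5 the means were 3.72 ± 0.24 in CD301b, 3.66 ± 0.19 in SIRPa and 4.22 ± 0.24 in XCR1 (SD, n = 3 each). No library of the others reached XCR1, with differences of -0.50 for CD301b and -0.56 for SIRPa (exact permutation p = 0.1 for each).

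Psmb10 over Psmb7 followed another order: the mean was -0.04 ± 0.17 in CD301b, 0.29 ± 0.07 in SIRPa and -0.50 ± 0.48 in XCR1. The SIRPa libraries lay above both other populations (exact permutation p = 0.1 against each), and the wide spread in XCR1 came from replicate 3 at -1.05. With 3 libraries against 3, no p below 0.1 was possible, and after adjustment over the 9 tests the smallest value was 0.15.

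**Figure D3:**
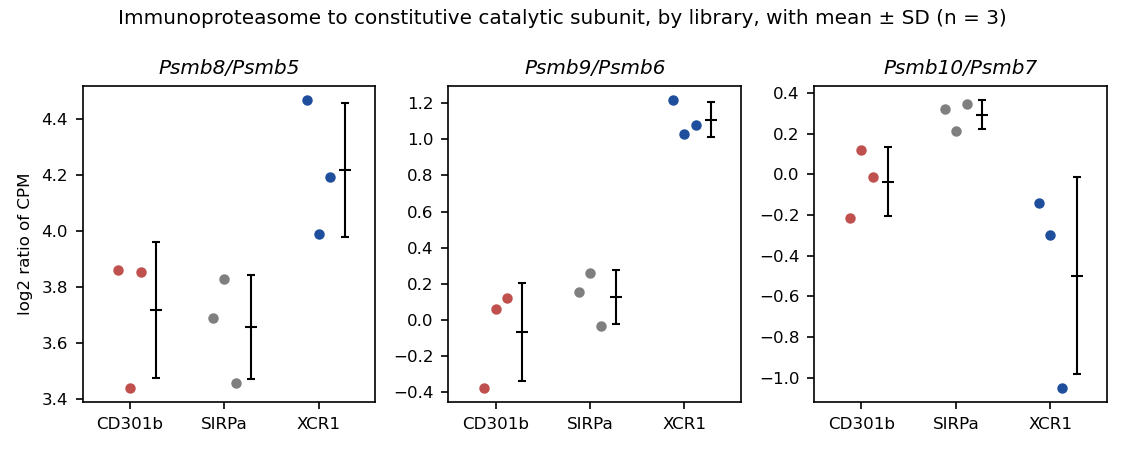
Log2 ratio of each immunoproteasome gene to the constitutive catalytic gene it replaces, per library, with CD301b, SIRPa and XCR1 from left to right. Points are libraries and bars are the mean and SD of 3 libraries. Psmb9 over Psmb6 separates XCR1 from both others, while Psmb10 over Psmb7 is highest in SIRPa.

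In the ATPase ring, which unfolds substrates, 1 of 6 genes was called lower in CD301b and 2 lower in SIRPa than in XCR1. Psmc4 had 74.4, 77.8 and 70.5 CPM in CD301b libraries, 59.0, 65.6 and 71.7 CPM in SIRPa libraries and 85.8, 105 and 95.9 CPM in XCR1 libraries. It lay below XCR1 without overlap in both. The log2 fold change for SIRPa was -0.55 ± 0.13 (adjusted p = 0.00334), whereas the call for CD301b (-0.37 ± 0.13, adjusted p = 0.0487) was lost on leaving out any of 6 libraries: CD301b replicates 1, 3 and 4, SIRPa replicate 2, and XCR1 replicates 2 and 3 (adjusted p up to 0.198).

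Psmc3 had 145, 162 and 137 CPM in CD301b, 137, 126 and 142 CPM in SIRPa and 161, 178 and 165 CPM in XCR1 libraries. Its SIRPa libraries lay below XCR1 and its CD301b libraries overlapped XCR1. The call for SIRPa over XCR1 (-0.32 ± 0.11, adjusted p = 0.0355) was lost on leaving out any single SIRPa or XCR1 library (adjusted p up to 0.136). Psmc6, uncalled, averaged 74.7 ± 6.39 CPM in CD301b, 77.1 ± 10.2 CPM in SIRPa and 95.9 ± 9.31 CPM in XCR1 libraries, with log2 fold changes of -0.36 for CD301b (adjusted p = 0.0621) and -0.32 for SIRPa (adjusted p = 0.101) over XCR1.

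Of the 14 non-ATPase genes, which include scaffolds, ubiquitin receptors, the lid and chaperones of the base, 2 were called lower in CD301b (Psmd7, Psmd12) and 4 lower in SIRPa (Psmd5, Psmd6, Psmd7, Psmd14) than in XCR1. Psmd7, the lid partner of the deubiquitinase Psmd14, had 70.4, 80.9 and 52.4 CPM in CD301b libraries, 68.3, 82.4 and 58.3 CPM in SIRPa libraries and 96.5, 105 and 104 CPM in XCR1 libraries. XCR1 libraries were tightly grouped above the other, more scattered ones. The log2 fold change was -0.58 ± 0.16 for CD301b over XCR1 (adjusted p = 0.00967) and -0.55 ± 0.16 for SIRPa over XCR1 (adjusted p = 0.0134, and 0.0849 without SIRPa replicate 3).

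The lid subunit Psmd6 had 57.3, 61.9 and 62.6 CPM in CD301b libraries, 53.3, 53.0 and 52.1 CPM in SIRPa libraries and 74.4, 80.7 and 69.3 CPM in XCR1 libraries. The 3 populations did not overlap for this gene. SIRPa over XCR1 passed (-0.50 ± 0.13, adjusted p = 0.00695) and CD301b over XCR1 did not (-0.30, adjusted p = 0.109). Psmd12, another lid subunit, had 51.5, 42.8 and 33.4 CPM in CD301b, 42.0, 46.5 and 52.8 CPM in SIRPa and 62.3, 71.7 and 49.9 CPM in XCR1 libraries. CD301b and XCR1 overlapped, and the call (-0.52 ± 0.18, adjusted p = 0.0386) did not hold when CD301b replicate 3 or 4, or XCR1 replicate 1 or 2, was left out (adjusted p up to 0.189). Psmd14 averaged 73.3 ± 8.79 CPM in CD301b, 71.9 ± 2.34 CPM in SIRPa and 94.6 ± 12.6 CPM in XCR1 libraries (SD, n = 3 each). Its call for SIRPa over XCR1 (-0.39 ± 0.14, adjusted p = 0.0389) was lost without any one SIRPa library or XCR1 replicate 2 or 3 (adjusted p up to 0.173). For CD301b over XCR1, Psmd14 did not pass (-0.37, adjusted p = 0.0583), but did under 7 of 18 alternatives. Psmd2, a base scaffold and the most abundant of the uncalled non-ATPase genes, averaged 206 ± 17.2 CPM in CD301b, 185 ± 9.07 CPM in SIRPa and 225 ± 20.7 CPM in XCR1 libraries. Its SIRPa libraries lay below XCR1 without overlap. The log2 fold change of -0.28 did not pass (adjusted p = 0.0588), but did under 7 of 18 alternatives.

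Psmd5, a chaperone of base assembly, followed another order. It had 27.7, 26.03 and 40.2 CPM in CD301b libraries, 19.97, 17.4 and 19.3 CPM in SIRPa libraries and 29.5, 31.0 and 31.4 CPM in XCR1 libraries. SIRPa lay below both other populations, which overlapped. CD301b over SIRPa was 0.73 ± 0.20 on the log2 scale (adjusted p = 0.0461). It missed the threshold when CD301b replicate 1 or 4, any SIRPa replicate, or XCR1 replicate 1 or 2 was left out (adjusted p up to 0.238). SIRPa over XCR1 was -0.70 ± 0.20 (adjusted p = 0.0144, and 0.0590 without SIRPa replicate 2).

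Psmd10, the assembly chaperone also called gankyrin, leaned the opposite way and is named for that after its values were seen. It had 28.5, 21.3 and 16.0 CPM in CD301b libraries, 19.1, 29.7 and 25.3 CPM in SIRPa libraries and 16.0, 16.4 and 14.9 CPM in XCR1 libraries. SIRPa lay above XCR1 without overlap, but neither 0.65 ± 0.24 for SIRPa (adjusted p = 0.0596) nor 0.48 for CD301b (adjusted p = 0.189) over XCR1 passed. SIRPa over XCR1 did pass when CD301b replicate 4 (adjusted p = 0.0440) or SIRPa replicate 1 (adjusted p = 0.0445) was left out. Psmd8, a lid subunit, averaged 108 ± 4.19 CPM in CD301b, 107 ± 8.62 CPM in SIRPa and 108 ± 12.9 CPM in XCR1 libraries.

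**Figure D4:**
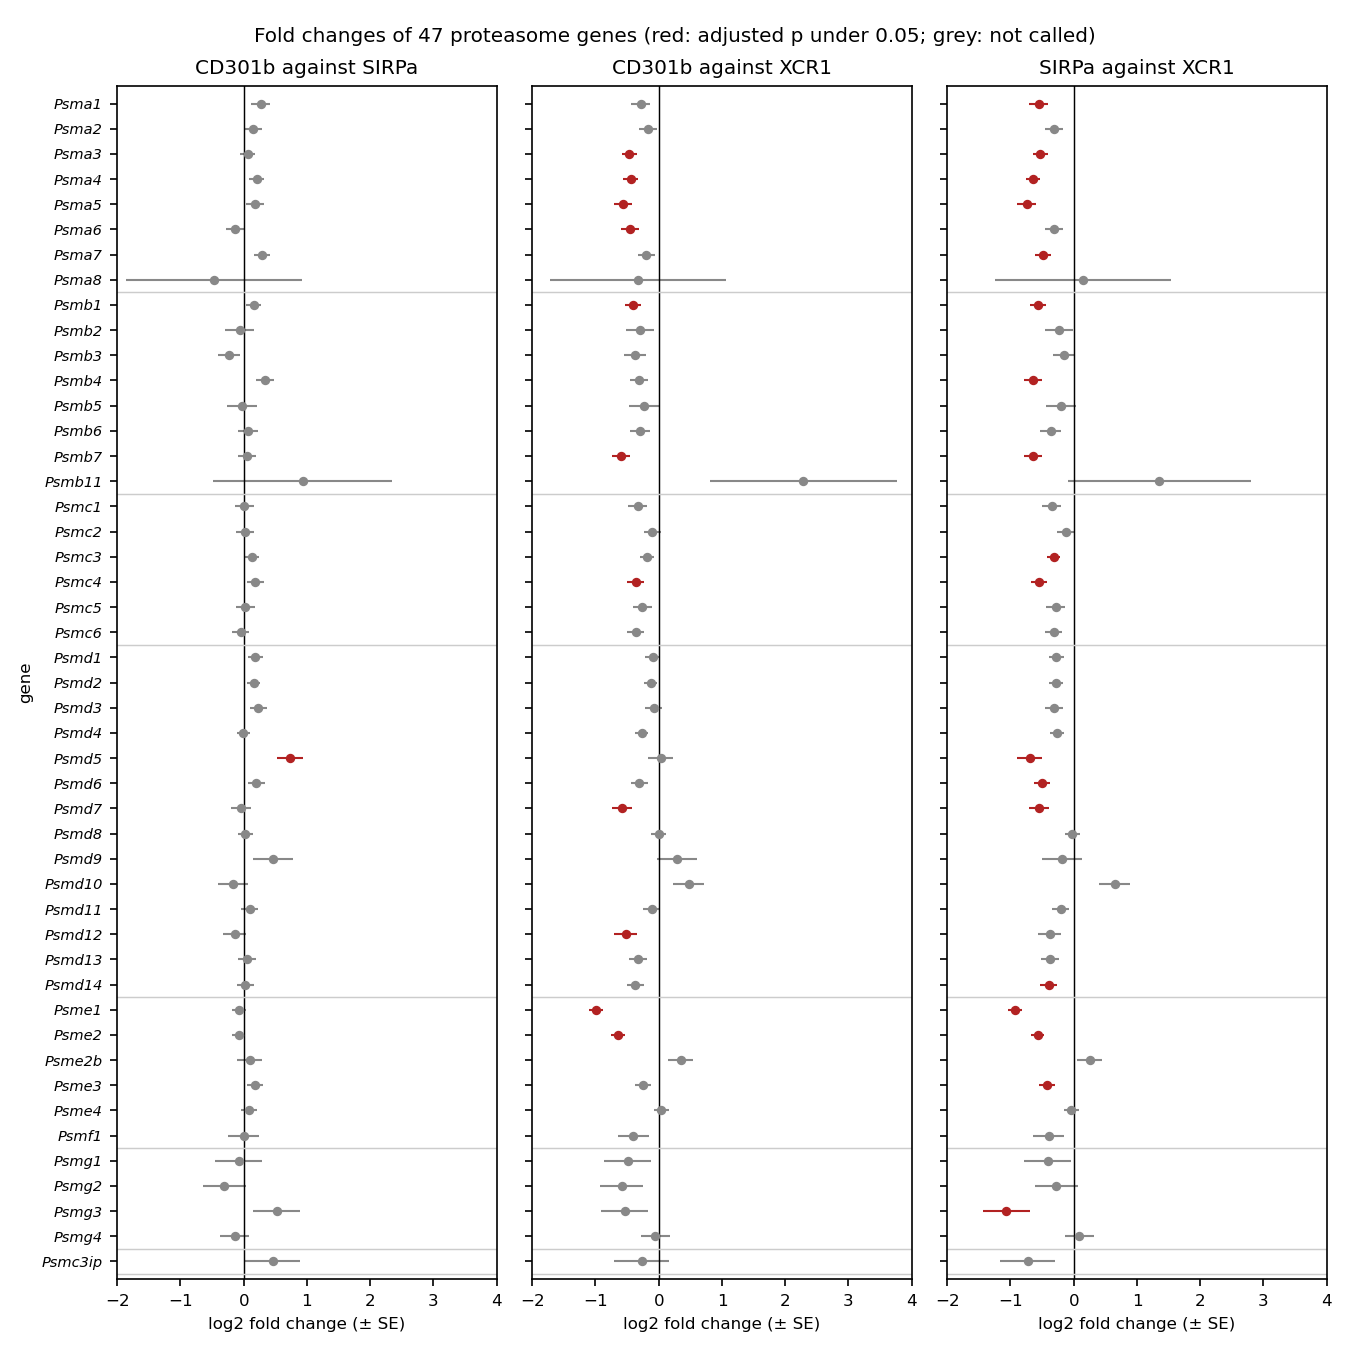
Log2 fold change with its standard error for each of the 47 genes (down the page, grouped by role) in the 3 comparisons, CD301b over SIRPa, CD301b over XCR1 and SIRPa over XCR1. Red points passed an adjusted p of 0.05 (1, 11 and 18 genes); all calls against XCR1 are below 0.

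The activators gave the largest called differences in the comparison of CD301b with XCR1. Psme1 and Psme2 encode the subunits of PA28 alpha-beta, a ring that caps the core without ATP. Psme1 (GRCm38, chr14:55578123-55581529, plus strand) had 490, 546 and 394 CPM in CD301b libraries, 465, 525 and 511 CPM in SIRPa libraries and 939, 1036 and 877 CPM in XCR1 libraries. CD301b and SIRPa overlapped each other and lay far below XCR1, with log2 fold changes of -0.995 ± 0.11 for CD301b (adjusted p = 7.27e-07) and -0.93 ± 0.11 for SIRPa (adjusted p = 1.91e-06).

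Psme2 had 201, 174 and 205 CPM in CD301b libraries, 199, 205 and 209 CPM in SIRPa libraries and 300.4, 331 and 276 CPM in XCR1 libraries. Here too no library of CD301b or SIRPa reached the XCR1 range, though the gap was narrower than for Psme1. Log2 fold changes over XCR1 were -0.65 ± 0.11 for CD301b (adjusted p = 8.66e-05) and -0.57 ± 0.11 for SIRPa (adjusted p = 0.000328). The near-copy Psme2b shares 99.3% of 720 coding bases with Psme2, so the split of reads between them is uncertain. Psme2b averaged 25.6 ± 2.01 CPM in CD301b, 23.9 ± 2.33 CPM in SIRPa and 20.1 ± 2.01 CPM in XCR1 libraries and was not called.

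Psme3, the nuclear PA28 gamma, had 83.2, 88.5 and 91.0 CPM in CD301b, 78.9, 75.5 and 78.3 CPM in SIRPa and 119, 96.1 and 95.9 CPM in XCR1 libraries. SIRPa over XCR1 was called (-0.42 ± 0.12, adjusted p = 0.0160), but not without XCR1 replicate 1 (adjusted p = 0.123) or SIRPa replicate 2 (adjusted p = 0.0535). Psme4, the PA200 activator, averaged 115 ± 3.75 CPM in CD301b, 109 ± 11.9 CPM in SIRPa and 112 ± 10.03 CPM in XCR1 libraries (SD, n = 3 each), and was not called. Nor was the inhibitor Psmf1, at 24.9 ± 8.23 CPM in CD301b, 24.98 ± 4.77 CPM in SIRPa and 32.9 ± 7.90 CPM in XCR1 libraries. Of the activators, only Psme1, Psme2 and Psme3 passed in any comparison.

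The 4 assembly chaperones of the core were the least abundant group, and 0 were called in CD301b over XCR1. Psmg3 had 8.48, 8.59 and 4.75 CPM in CD301b libraries, 4.07, 6.19 and 4.90 CPM in SIRPa libraries and 10.2, 9.64 and 11.9 CPM in XCR1 libraries. XCR1 lay above both, and SIRPa over XCR1 passed (-1.06 ± 0.37, adjusted p = 0.0418). That call was lost without any one SIRPa or XCR1 library or CD301b replicate 3 (adjusted p up to 0.151). The most abundant chaperone, Psmg4, averaged 17.4 ± 1.66 CPM in CD301b, 19.2 ± 2.10 CPM in SIRPa and 18.05 ± 3.17 CPM in XCR1 libraries and was not called.

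The genes that the symbol rule adds from other tissues had low counts. Psmb11 had 15, 77 and 25 counts in CD301b libraries, 32, 3 and 21 counts in SIRPa libraries and 4, 0 and 17 counts in XCR1 libraries, which is at most 3.23 CPM. The libraries overlapped and none of its comparisons passed. A count of 3, the upper limit that a count of 0 allows, corresponded to 0.119 to 0.150 CPM. Of the 11 thymic cortical epithelium genes, Psmb11 included, 10 were tested. Of these 10, 1 was called higher in CD301b (10%) and 2 higher in SIRPa (20%) than in XCR1, and 0 lower. Of all genes, 13.5% and 13.9% were called higher. The 11 epithelial genes summed to 66.8 to 80.0 CPM in CD301b, 88.1 to 107 CPM in SIRPa and 65.5 to 78.7 CPM in XCR1 libraries. Over the 9 libraries, the epithelial factor Foxn1 lay at 0 to 0.66 CPM, Prss16 at 0 to 4.50 CPM, Ccl25 at 5.54 to 13.4 CPM and Krt8 at 1.32 to 13.4 CPM. Dll4 lay at 4.06 to 7.63 CPM in CD301b, 20.7 to 25.4 CPM in SIRPa and 0.85 to 7.55 CPM in XCR1 libraries. The part of epithelial transcripts in the Psmb11 level was not tested. Psma8 averaged 0.734 ± 0.642 CPM in CD301b, 1.03 ± 0.104 CPM in SIRPa and 0.928 ± 0.640 CPM in XCR1 libraries, and was not called. Nor was Psmc3ip, at 7.15 ± 2.95 CPM in CD301b, 5.19 ± 0.963 CPM in SIRPa and 8.62 ± 4.13 CPM in XCR1 libraries.

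Levels per kilobase of exon (GENCODE, GRCm38) allow genes to be set side by side. Over the 9 libraries, the 14 core genes other than Psma8 and Psmb11 averaged 16.3 CPM per kilobase (Psmb3) to 78.4 CPM per kilobase (Psma4), with a median of 33.9. The ATPase genes spanned 13.6 (Psmc2) to 57.7 (Psmc3) CPM per kilobase and the non-ATPase genes 1.62 (Psmd9) to 56.1 (Psmd4). Psme1 stood at 291 and Psme2 at 132 CPM per kilobase, above every core and 19S gene. The inhibitor Psmf1 (4.29) and the chaperones (2.64 for Psmg3 to 32.8 for Psmg4) were lower than Psma4 in the same unit.

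**Figure D5:**
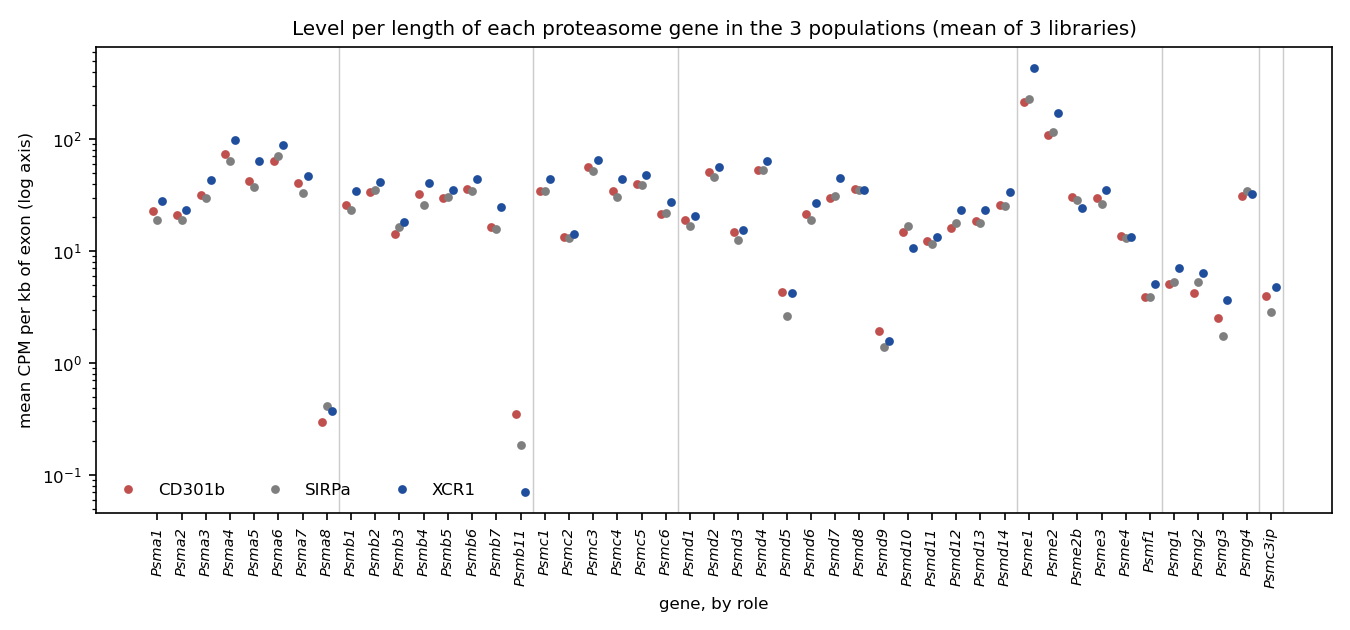
Mean level of each gene in CPM per kilobase of exon (log axis), grouped by role. Each gene has 1 point per population (CD301b, SIRPa and XCR1 from left to right), the mean of 3 libraries. Psme1 and Psme2 lie above all core and regulator genes, and Psmb11 and Psma8 below 1 CPM per kilobase.

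Genes that work with the proteasome were listed by function. Of 22 genes of proteasome-associated proteins and the ubiquitin pathway, 8 were called lower and 1 higher in CD301b than in XCR1, and 7 lower and 0 higher in SIRPa than in XCR1. Together this was 40.9% and 31.8% of the list, where 22.6% and 24.7% of all genes were called. The lower calls made up 36.4% and 31.8%, where 9.12% and 10.7% of all genes were called lower. Pomp, the maturation factor of the 20S core, averaged 137 ± 11.96 CPM in CD301b, 106 ± 12.9 CPM in SIRPa and 219 ± 24.95 CPM in XCR1 libraries (SD, n = 3 each). It was called lower in CD301b (-0.67 ± 0.12, adjusted p = 0.000254) and in SIRPa (-1.04 ± 0.12, adjusted p = 1.24e-06). Vcp, the segregase that extracts ubiquitinated proteins, averaged 356 ± 39.2 CPM in CD301b, 338 ± 33.8 CPM in SIRPa and 489 ± 44.3 CPM in XCR1 libraries and was called lower in CD301b (-0.46 ± 0.11, adjusted p = 0.00353) and in SIRPa (-0.53 ± 0.11, adjusted p = 0.000858).

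Of 14 genes known to control proteasome transcription, 3 were called higher and 0 lower in CD301b than in XCR1, and 2 higher and 0 lower in SIRPa than in XCR1. That was 21.4% and 14.3% of the list, where 22.6% and 24.7% of all genes were called and 13.5% and 13.9% called higher. Nfe2l2, which encodes NRF2, averaged 119 ± 20.1 CPM in CD301b, 160 ± 26.6 CPM in SIRPa and 47.8 ± 4.46 CPM in XCR1 libraries. Its log2 fold changes over XCR1 were 1.32 ± 0.15 for CD301b (adjusted p = 5.43e-07) and 1.74 ± 0.15 for SIRPa (adjusted p = 1.01e-08). Bach1, a repressor at the same element, was higher as well, by 1.33 ± 0.13 for CD301b (adjusted p = 7.51e-08) and 1.04 ± 0.13 for SIRPa (adjusted p = 2.10e-06). Nfe2l1, which encodes NRF1, averaged 199.97 ± 20.8 CPM in CD301b, 214 ± 9.25 CPM in SIRPa and 211 ± 26.2 CPM in XCR1 libraries and was not called. Between CD301b and SIRPa, 0 genes of either list were called by edgeR, where 4.28% of all genes were called. At an unadjusted p below 0.05 there were 4 of 22 and 2 of 14.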

How the data were processed

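Per the labels' protocols, thymi were digested for 30 min, cells were sorted by flow cytometry, and stranded total RNA libraries (Clontech Pico) were sequenced on a NextSeq. Per the submitters' processing notes, the build was mm10 and the tools were HISAT2, featureCounts (Subread), edgeR, FastQC, SAMtools and Trimmomatic. Versions, the annotation and the strand setting are not stated there. The deposited table holds raw read counts per gene for 55302 symbols. A deposited table of log2 CPM values was used only as a check: it differed from values recomputed here by a median of 0.114 to 0.121 per library for the genes described, with no gene over 0.0057 from its library's median.

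Of the count table, 24 symbols turned into numbers (0.125 to 0.187% of counts) were left out. Genes were filtered with filterByExpr (minimum count 10), scaled by TMM and tested with edgeR's quasi-likelihood test (robust, two-sided) in 1 fit over 9 libraries with 3 populations, adjusted by Benjamini-Hochberg over 15417 genes. The software was edgeR 4.0.16, DESeq2 1.42.0 and limma 3.58.1 in R 4.3.3, and the procedure was tested on simulated data. Levels are TMM-scaled CPM as mean ± SD over 3 libraries. Standard errors of log2 fold changes were derived from the test. Each is the size of the log2 fold change divided by the square root of the test's F statistic. Reads carried no stated molecular identifiers, so a floor covers counting error only. Spearman correlations within a population were 0.958 to 0.972.

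The genes and gene lists were chosen with earlier results of these data known. Given in full are called genes (up to 4 per role by smallest adjusted p), Psmb5, Psmb6, Psmb7, Psme1, Psme2, Psmb11, Psma8, Psmc3ip, the uncalled gene with the highest mean per role, Psmb8, Psmb9 and Psmb10, and up to 3 called genes per list; further genes are given by their values. The design text speaks of 3 mice, and titles number CD301b libraries 1, 3 and 4. Whether libraries share animals or are pools is not stated, so p-values measure only the spread between these libraries, which may be technical. Alternatives were other scalings and filters, DESeq2, limma-voom, the 6 libraries compared alone, a replicate block and leaving out each library.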

Additional observations from a re-analysis of the deposited data

How the results depend on the processing

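Of 30 calls among the proteasome genes over the 3 comparisons, 15 passed under all 18 alternatives, 16 in all 9 fits that left out 1 library, and 0 changed sign. Leaving out 1 library gave 0 to 1 call for CD301b over SIRPa (0 to 1 higher), 6 to 12 for CD301b over XCR1 (6 to 12 lower) and 13 to 25 for SIRPa over XCR1 (13 to 24 lower and 0 to 1 higher). Of all genes, these fits called 2% to 4.95%, 17.7% to 19.8% and 18.4% to 24.6%. For CD301b over XCR1 the lowest count came without XCR1 replicate 2, and for SIRPa over XCR1 without XCR1 replicate 2 or SIRPa replicate 2. For CD301b over SIRPa, the count was 0 with RLE size factors, library totals only, upper quartile scaling or the 6 libraries alone. DESeq2 called 1, 14 and 19, limma-voom 1, 12 and 18, and a filter of 50 counts 1, 14 and 20 of the 45 genes it kept. Of all genes, DESeq2 called 5.88%, 25.3% and 26.9%, and limma-voom 6.47%, 23.9% and 25.8%. With the filter of 50 counts, 5.8%, 29% and 31.4% of all genes were called. The larger counts thus came with larger shares of all genes. For SIRPa over XCR1, 1 gene, Psmd10, was called higher with library totals only, the 6 libraries alone, without CD301b replicate 4 or without SIRPa replicate 1. For CD301b over SIRPa, limma-voom called 997 of all genes and edgeR 660, and leaving out 1 library gave 328 to 813, with 328 without SIRPa replicate 1, 418 without SIRPa replicate 3 and 438 without CD301b replicate 3. Values that did not pass could change sign when 1 library was left out: the log2 fold change for SIRPa over XCR1 ranged from -0.061 to 0.26 for Psmb10 and from -0.35 to 0.014 for Psmb5, and the log2 ratio of Psmb8 to Psmb5 for CD301b minus SIRPa from -0.040 to 0.20. The cause of these shifts was not tested.

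Deviations of libraries with the same number correlated at 0.00305 to 0.0413, against -0.0672 to 0.0481 for different numbers. Of the SIRPa and XCR1 libraries, 4 of 6 correlated best with their own number, a hint from the data only. Correlations this weak do not settle whether libraries with the same number are paired. With the replicate block, the calls were 0 for CD301b over SIRPa, 5 (all lower) for CD301b over XCR1, where Psma4, Psma6, Psmb1, Psmc4, Psmd7 (-0.35, adjusted p = 0.124) and Psmd12 missed the threshold, and 21 (1 higher, 20 lower) for SIRPa over XCR1, and Psmb10 for CD301b over XCR1 was 0.0037. Of all genes, 4.28%, 18.9% and 26.2% were called with the block. In this block fit, the number 4 belongs to 1 CD301b library only. That library forms its own block and drops out of the comparisons. Leaving it out without a block gave 8 calls for CD301b over XCR1 (17%, all lower), where 19.3% of all genes were called and 8.23% lower. At this depth, genes near 1 CPM, such as Psmb11 and Psma8, gave standard errors up to 1.48, so differences in them were not detectable.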
